A study of Tachysurus vachellii with 6 samples.

Results

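The genes described here are those that the deposited annotation assigns to the KEGG spliceosome pathway, in gill tissue of hybrid yellow catfish. Of 28288 genes in the table, 247 carried the entry. Leaving out 9 described as heat shock proteins or as an initiation factor, and 28 that did not reach 1 FPKM in 3 libraries, left 210 genes. FPKM is the count scaled to transcript length and library total, as the authors computed it. Of the 28 genes under this level, 7 have splicing names. At the limit, 5 of the 210 genes reached 1 FPKM in exactly 3 or 4 libraries, with means over 6 libraries of 0.951 to 9.70 FPKM. A further 4 genes left out reached it in 1 or 2 libraries, with means of 0.665 to 3.66 FPKM. All but 2 of the 210 genes reached 1 FPKM in at least 1 library of each group. The exceptions, LOC113656530 and LOC113636563, did so in normoxia libraries alone. The genes were chosen by annotation and level, and not by how they differ between the groups.

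The hypoxia fish were held for 96 h at 1.5 mg/L dissolved oxygen, and the normoxia fish were held at 6.5 mg/L. The time listed for the normoxia libraries is 96 h too. Both groups were hybrids (mother Tachysurus fulvidraco, father Pseudobagrus vachellii) that had been fasted before the trial. Gill RNA was taken from 9 fish per group and mixed in sets of 3, which gave 3 hypoxia and 3 normoxia libraries of mRNA, with 44762764 to 54578326 and 46885400 to 55016223 counts in all. The replicates are thus pools, so errors and p-values rest on means over 3 fish and values of individual fish were not measured. In bulk tissue, fewer cells of a type and less RNA per cell cannot be told apart.

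The spliceosome removes introns from pre-mRNA. It is built anew on each intron from small nuclear ribonucleoproteins (snRNPs), each with a short RNA (U1, U2, U4, U5 or U6), a ring of 7 Sm or LSm proteins and proteins of its own. U1 binds the start of the intron and U2 its branch point; the U4/U6.U5 tri-snRNP then joins, and the PRP19 complex and a set of helicases remodel the assembly into its catalytic form. SR proteins and hnRNPs steer it to exons. The short RNAs lack poly(A) tails, so oligo-dT libraries show the genes of the proteins, and counts per gene do not show how introns were spliced.

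Most spliceosome genes lay slightly above normoxia in hypoxia, and the proteins of the Sm and LSm rings lay above it most. With edgeR's quasi-likelihood test on TMM-scaled counts, adjusted by the Benjamini-Hochberg method over 15312 genes, 32 of the 210 genes were higher in hypoxia (15.2%) and 2 were lower (0.952%). Over all genes tested, 5.39% were higher and 4.15% lower at the same threshold, an adjusted p of 0.05. The log2 change was above 0 in 162 of the 210 genes, with a median of 0.28, against -0.04 over all genes. An adjusted p between 0.05 and 0.10 was found for 23 of the 210 genes, or 11%, against 11.1% of all genes. Printed FPKM do not carry the TMM scaling and can thus show a smaller ratio than the log2 change beside them.

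The balance of directions depends on that scaling. With library totals alone, 9 of the 210 genes were higher and 3 lower, against 2.39% and 5.21% of all genes. The median log2 change was then 0.11 over the 210 genes and -0.20 over all genes. On FPKM the groups did not overlap in 59 spliceosome genes with hypoxia higher and 27 with hypoxia lower, against 11.4% and 25.9% of all genes, and the 59 and 27 are 28.1% and 12.9% of the 210. The 27 include LOC113656530 and LOC113636563, whose groups the level filter itself kept apart. Among the 208 genes that reached 1 FPKM in both groups, the numbers were 59 and 25.

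The KEGG assignment is broader than the splicing machinery. By symbol and description, 143 of the 210 genes are named as splicing proteins, in 12 roles, and 67 appear to carry the entry through likeness to one, such as helicases of ribosome assembly. Of the 143, 23 were higher (16.1%) and 2 lower (1.4%), with a median log2 change of 0.32. Of the 67, 9 were higher (13.4%) and 0 lower, with a median of 0.19. Over all genes, 5.39% were higher and 4.15% lower. By DESeq2, which called 11.7% of all genes higher and 10.1% lower, 14 of the 67 were higher and 3 lower, and 22 had an unadjusted p under 0.05 with edgeR (32.8%, against 30.3% of all genes).

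**Figure D1:**
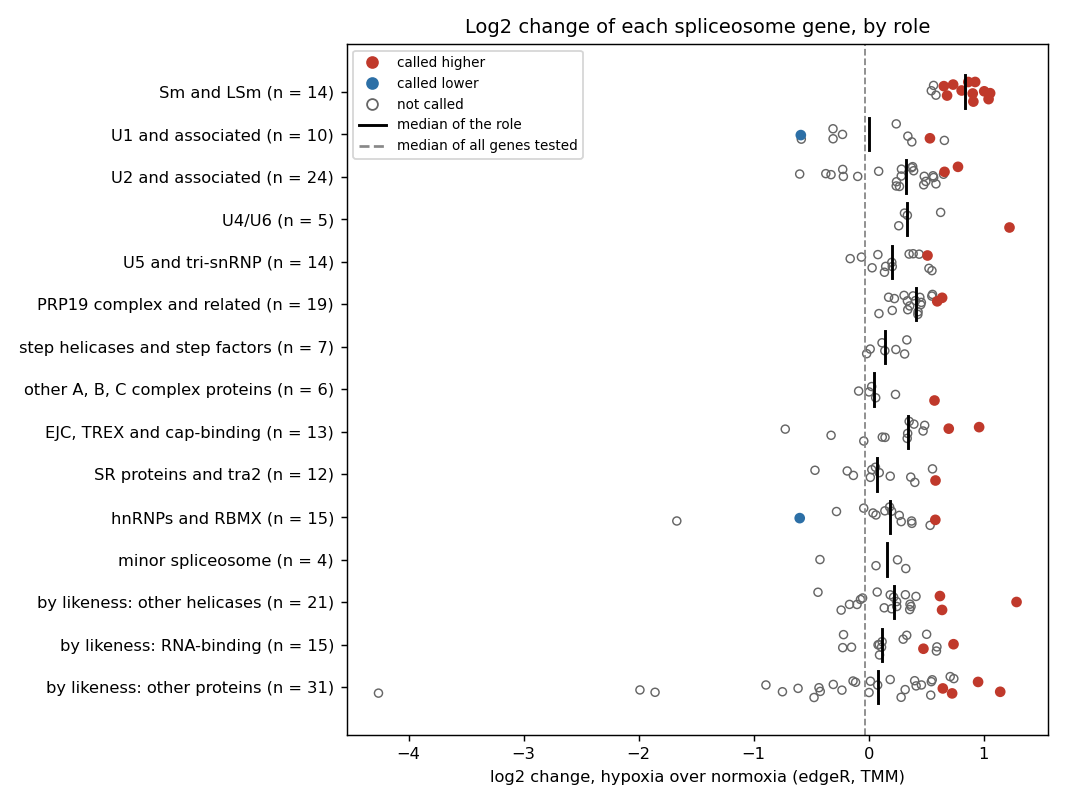
Log2 change of each of the 210 spliceosome genes, hypoxia over normoxia, by role (each circle 1 gene, filled where it passed the threshold; bar: median of the role; dashed line: median of all genes tested, -0.04). The Sm and LSm genes lie together at the right, with a median of 0.84, while the SR proteins centre near 0 (median 0.07) and the U1 proteins fall on both sides.

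The genes of the Sm ring, the 7 proteins that close around U1, U2, U4 and U5 RNA, were all higher in hypoxia. Their median log2 change was 0.93, with a range of 0.73 to 1.06. snrpe measured 137, 167 and 154 FPKM in hypoxia replicates 1, 2 and 3, against 90.1, 71.9 and 92.6 FPKM in normoxia replicates 1, 2 and 3. The lowest hypoxia pool lay well above the highest normoxia pool. Its log2 change was 1.00 ± 0.15 (SE; edgeR adjusted p = 0.0198), and it lies on scaffold NW_020847828.1 at 428954 to 434195 of the authors' assembly.

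snrpd1 measured 229, 190 and 221 FPKM in hypoxia and 130, 97.1 and 121 FPKM in normoxia, with a log2 change of 1.04 ± 0.17 (edgeR adjusted p = 0.0240). For snrpf the values were 84.4, 109 and 98.6 FPKM in hypoxia and 61.8, 52.7 and 57.1 FPKM in normoxia, a log2 change of 0.93 ± 0.14 (edgeR adjusted p = 0.0198). In both genes the groups stood apart with no overlap. snrpb, the most abundant of the ring, had 261, 271 and 280 FPKM in hypoxia against 190, 118 and 176 FPKM in normoxia, a log2 change of 0.90 ± 0.20 (edgeR adjusted p = 0.0414). Log2 changes were 1.06 for snrpg, 0.87 for snrpd2 and 0.73 for snrpd3, and the FPKM of the groups overlapped in none of these 3 genes.

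LSm proteins 2 to 8 form the ring at the end of U6 RNA. Of their 7 genes, 4 were higher: lsm2 by a log2 change of 0.91, lsm3 by 0.81, lsm4 by 0.68 and lsm5 by 0.65. lsm4 measured 51.0, 67.7 and 66.1 FPKM in hypoxia and 45.5, 39.3 and 43.4 FPKM in normoxia. The other LSm genes, lsm6, lsm7 and lsm8, had log2 changes of 0.58, 0.56 and 0.54 and did not pass (edgeR adjusted p = 0.117, 0.117 and 0.0632). Only lsm7 had overlapping groups, with 68.0, 81.3 and 58.9 FPKM in hypoxia against 60.7, 44.2 and 53.2 FPKM in normoxia. Summed over the 14 Sm and LSm genes, the level was 1525, 1719 and 1600 FPKM in hypoxia replicates 1, 2 and 3, against 1133, 836 and 1042 FPKM in normoxia replicates 1, 2 and 3.

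**Figure D2:**
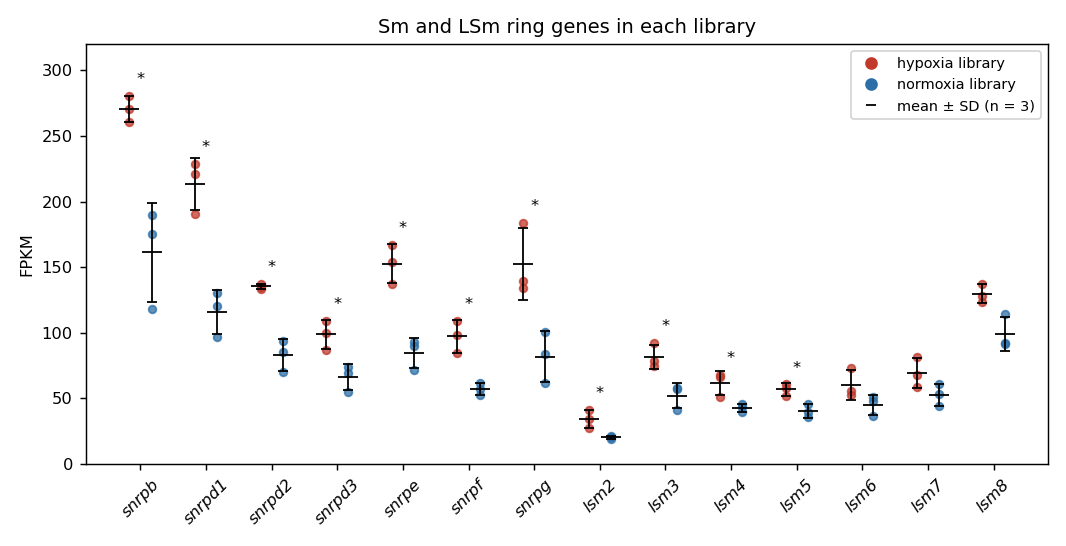
FPKM of the 7 Sm and the 7 LSm ring genes in each library (points; hypoxia left of normoxia for each gene), with the mean and SD of 3 pools; an asterisk marks the 11 genes past the threshold. Hypoxia pools lie above normoxia pools in 13 of the 14 genes, lsm7 being the exception, against 11.4% of all genes tested. The lowest normoxia value of each Sm gene belongs to replicate 2.

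The calls depended on which libraries were kept. Of the 14 Sm and LSm genes, 5 were called without hypoxia replicate 3 and 10 without normoxia replicate 1, but 0 when any of the other 4 libraries (hypoxia replicate 1 or 2, normoxia replicate 2 or 3) was left out. Over the 210 genes the number called higher was 1 without hypoxia replicate 1 (0.842% of all genes), 0 without hypoxia replicate 2 (0.849%), 10 without hypoxia replicate 3 (2.43%), 19 without normoxia replicate 1 (3.2%), 0 without normoxia replicate 2 (0.444%) and 0 without normoxia replicate 3 (0.62%). None of the 34 called genes passed in each of these 6 fits. The direction moved less than the calls. The 14 genes kept a log2 change of 0.38 to 1.27 over the 16 alternative analyses, and all 34 called genes kept their sign in each that tested them.

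Transcript length moved with the change, in these genes and in all genes. Estimated length runs from under 1000 bases for the typical Sm or LSm gene to many times that for the large scaffold proteins. Among spliceosome genes under 1000 bases, 12 of 27 were higher (44.4%, against 12.8% of all genes of that length), and the median log2 change was 0.65, against 0.29. Those of 1000 to 2000 bases had a median of 0.36, those of 2000 to 3000 bases 0.24, and those over 3000 bases 0.09, against 0.12, -0.02 and -0.16 for all genes. Of the 58 spliceosome genes over 3000 bases, 1 was higher and 2 were lower (1.72% and 3.45%), against 2.44% and 6.21% of all genes of that length. Many of the genes under 1000 bases are the Sm and LSm genes given above. Outside these rings, 3 of 14 splicing-named genes under 1000 bases were higher (21.4%, against 12.8% of all genes of that length), with a median of 0.48.

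A fit with an offset for each library's trend with length called 17 of the 210 genes higher and 0 lower, against 4.74% and 2.26% of all genes. Of the 32 genes, 16 were called in it. The offset reduced the trend but did not remove it. Over all genes the median log2 change was then 0.16 under 1000 bases and 0.03 over 3000 bases. The spliceosome genes of those lengths had medians of 0.50 and 0.24. For splicing-named genes outside the Sm and LSm rings these medians were 0.34 and 0.23. In this fit the median over the 210 genes was 0.32, against 0.05 over all genes. That of the 14 Sm and LSm genes was 0.69, with 3 of the 14 called: snrpe, snrpf and snrpd1. The cause of the trend with length was not tested.

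**Figure D3:**
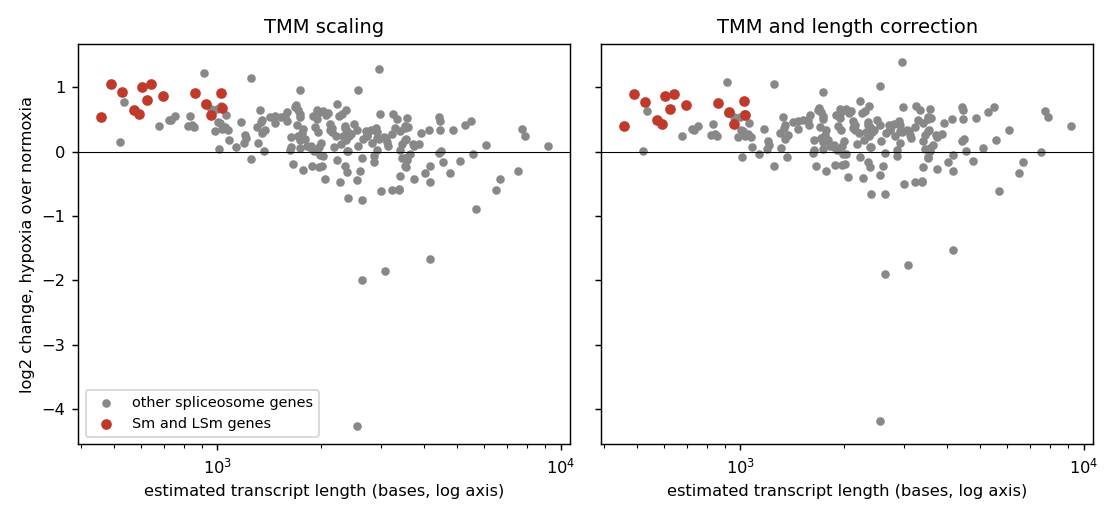
Log2 change, hypoxia over normoxia, against estimated transcript length (log axis) for the 210 spliceosome genes, with TMM scaling (left) and with the length correction (right); Sm and LSm genes in red. On the left the changes decline with length; after the correction the Sm and LSm genes still lie mostly above the others, with a median of 0.69 against 0.84 before it.

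Proteins specific to U1, which recognises the start of the intron, went in both directions. Of 10 genes 1 was higher and 1 lower (10% each, against 5.39% and 4.15% of all genes), with a median log2 change of 0.01. snrpa, the A protein of U1, measured 34.9, 35.6 and 44.1 FPKM in hypoxia and 28.0, 27.5 and 32.7 FPKM in normoxia, a log2 change of 0.53 ± 0.12 (edgeR adjusted p = 0.0418). LOC113634532, described as the helicase DDX17, measured 14.4, 12.5 and 15.6 FPKM in hypoxia and 21.4, 26.7 and 23.6 FPKM in normoxia, a log2 change of -0.59 ± 0.13 (edgeR adjusted p = 0.0424). No pool of one group reached the range of the other in either gene. LOC113634532 overlaps gga1 on the opposite strand, and reads of such pairs may not have been told apart.

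The other core U1 genes did not pass. snrpc, the C protein of U1, had 71.1, 83.0 and 78.0 FPKM in hypoxia against 65.6, 38.4 and 60.0 FPKM in normoxia (edgeR adjusted p = 0.0966). snrnp70, a further core protein of U1, had 67.7, 74.5 and 112 FPKM in hypoxia against 95.8, 123 and 129 FPKM in normoxia, and hypoxia replicate 3 lay inside the normoxia range (edgeR adjusted p = 0.295). rbm25, a splicing regulator that associates with U1, had 60.1, 63.7 and 77.0 FPKM in hypoxia against 77.8, 134 and 125 FPKM in normoxia (edgeR adjusted p = 0.109). Normoxia replicate 1 lay next to the hypoxia pools for rbm25. The most abundant gene of the role, LOC113634457, described as DDX5, averaged 184 ± 10.9 FPKM in hypoxia and 256 ± 16.8 FPKM in normoxia (SD, n = 3 each) and did not pass either (edgeR adjusted p = 0.206).

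Among the 24 genes of U2 and the factors that bring it to the branch point, 2 were higher (8.33%) and 0 lower. Over all genes these shares were 5.39% and 4.15%. A log2 change above 0 was found in 18 of the 24, and the median of the role was 0.33. phf5a, a small subunit of the SF3B complex that holds the branch point, measured 57.3, 68.4 and 59.7 FPKM in hypoxia and 41.6, 39.6 and 39.9 FPKM in normoxia. Its log2 change was 0.78 ± 0.14 (edgeR adjusted p = 0.0283), and its normoxia pools lay close together. u2af1, which reads the AG at the end of the intron, measured 138, 149 and 147 FPKM in hypoxia and 115, 96.5 and 95.0 FPKM in normoxia, a log2 change of 0.66 ± 0.14 (edgeR adjusted p = 0.0376). Its partner u2af2, which binds the pyrimidine tract, averaged 83.8 ± 5.03 FPKM in hypoxia and 79.1 ± 3.20 FPKM in normoxia (SD, n = 3 each), and the groups overlapped.

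sf3b1, the largest SF3B subunit and the most abundant gene of the role, did not follow phf5a. It measured 167, 150 and 184 FPKM in hypoxia and 211, 347 and 291 FPKM in normoxia. The groups did not overlap, with hypoxia lower, but the normoxia pools were far apart and the gene did not pass (log2 change -0.60 ± 0.21, edgeR adjusted p = 0.104). With the length correction its log2 change was -0.33. sf3a2, a subunit of the SF3A complex, had 46.8, 42.6 and 47.9 FPKM in hypoxia against 38.5, 32.1 and 33.6 FPKM in normoxia and lay just outside the threshold (edgeR adjusted p = 0.0507).

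The largest rise among the 143 splicing-named genes belonged to U4/U6, the pair of RNAs that is unwound when the spliceosome becomes active. LOC113662525, described as NHP2-like 1, a protein that binds U4 RNA and is also known as SNU13, measured 141, 111 and 123 FPKM in hypoxia and 69.4, 53.5 and 57.4 FPKM in normoxia. Every hypoxia pool lay above every normoxia pool by a wide margin. The log2 change was 1.22 ± 0.19 (edgeR adjusted p = 0.0198), and it passed in 3 of the 6 fits that leave out 1 library. It was the only one of the 5 U4/U6 genes that passed. prpf4, of the same particle, had 17.8, 14.96 and 19.8 FPKM in hypoxia against 14.7, 9.69 and 13.6 FPKM in normoxia (edgeR adjusted p = 0.0898).

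Of 14 genes of U5 and the tri-snRNP, usp39 alone passed (7.14% higher, near the 5.39% of all genes). It encodes a factor for tri-snRNP joining and measured 20.03, 22.0 and 21.3 FPKM in hypoxia and 16.9, 16.5 and 16.3 FPKM in normoxia, a log2 change of 0.51 ± 0.12 (edgeR adjusted p = 0.0435). None of the 3 large proteins at the catalytic centre passed. prpf8, the scaffold of the active site, averaged 46.8 ± 5.25 FPKM in hypoxia and 40.8 ± 5.75 FPKM in normoxia (SD, n = 3 each). The GTPase gene eftud2 averaged 17.5 ± 3.23 FPKM in hypoxia and 13.5 ± 2.15 FPKM in normoxia. snrnp200, the helicase that unwinds U4/U6, averaged 17.01 ± 2.62 FPKM in hypoxia and 17.9 ± 1.11 FPKM in normoxia. The groups overlapped in each of these 3 genes. LOC113646314, described as a prpf8 protein, spans 444 to 1636 of scaffold NW_020847805.1 and averaged 4.70 ± 0.963 FPKM in hypoxia and 4.72 ± 0.581 FPKM in normoxia. Reads it shares with prpf8 could have been split between the 2 genes.

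All 19 genes of the PRP19 complex and its partners, which stabilise the active spliceosome, had log2 changes above 0, from 0.09 to 0.64, with a median of 0.41. Of these, 2 passed (10.5% higher, against 5.39% of all genes). plrg1, a core subunit, measured 26.1, 27.3 and 25.8 FPKM in hypoxia and 19.2, 19.7 and 19.8 FPKM in normoxia, with little spread in either group and a log2 change of 0.60 ± 0.12 (edgeR adjusted p = 0.0342). pqbp1 measured 25.8, 33.3 and 30.3 FPKM in hypoxia and 22.7, 19.0 and 22.4 FPKM in normoxia, a log2 change of 0.64 ± 0.15 (edgeR adjusted p = 0.0433). It overlaps timm17b on the opposite strand. prpf19, the ubiquitin ligase that names the complex, had 36.7, 39.0 and 44.8 FPKM in hypoxia against 35.3, 25.3 and 30.7 FPKM in normoxia and did not pass (edgeR adjusted p = 0.0682). cdc5l averaged 28.7 ± 1.35 FPKM in hypoxia and 27.5 ± 2.24 FPKM in normoxia, and syf2, the most abundant gene of the role, averaged 111 ± 7.09 FPKM in hypoxia and 97.7 ± 5.56 FPKM in normoxia (SD, n = 3 each).

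None of the 7 genes for the helicases and factors that drive single steps of catalysis and release was called by edgeR. At an unadjusted p under 0.05 there was 1, and DESeq2 called 0. The median log2 change was 0.14. dhx15, the helicase that takes the spent complex apart, averaged 48.6 ± 3.22 FPKM in hypoxia and 43.7 ± 5.32 FPKM in normoxia. dhx16, which starts the first step, averaged 8.80 ± 1.42 FPKM in hypoxia and 7.76 ± 0.708 FPKM in normoxia (SD, n = 3 each). Among 6 other proteins of the A, B and C complexes only ppwd1, a prolyl isomerase, was higher, with 26.0, 30.5 and 28.1 FPKM in hypoxia against 22.7, 19.2 and 21.7 FPKM in normoxia (edgeR adjusted p = 0.0448). sde2, of the same role, averaged 18.2 ± 0.817 FPKM in hypoxia and 17.3 ± 0.0946 FPKM in normoxia (SD, n = 3 each).

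Of the 13 genes of the exon junction complex, the TREX export complex and the cap-binding complex, 2 were higher (15.4%, against 5.39% of all genes). Both are described as DDX39A, a helicase that hands spliced mRNA to export. LOC113652914 measured 168, 167 and 167 FPKM in hypoxia and 109, 83.2 and 95.7 FPKM in normoxia, a log2 change of 0.96 ± 0.16 (edgeR adjusted p = 0.0241). LOC113648836 measured 66.1, 71.2 and 74.2 FPKM in hypoxia and 55.9, 39.0 and 50.6 FPKM in normoxia, a log2 change of 0.70 ± 0.17 (edgeR adjusted p = 0.0469). Neither gene had overlapping groups.

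LOC113634769, described as the paralogue DDX39B, measured 13.2, 11.4 and 12.5 FPKM in hypoxia and 13.5, 29.3 and 26.6 FPKM in normoxia. It did not pass (log2 change -0.73 ± 0.27, edgeR adjusted p = 0.130), and normoxia replicate 1 lay beside the hypoxia pools. The gene overlaps znrd1 on the opposite strand. LOC113655707, described as the exon junction protein magoh, averaged 163 ± 22.6 FPKM in hypoxia and 129 ± 24.0 FPKM in normoxia (SD, n = 3 each), with overlapping groups. eif4a3, the helicase at the core of that complex, was left out of the 210 by its description. It had 130, 130 and 129 FPKM in hypoxia against 118, 92.0 and 112 FPKM in normoxia and did not pass (edgeR adjusted p = 0.111).

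The 12 SR protein genes, which bind exon sequences and recruit U1 and U2, had a median log2 change of 0.07. Of the 12, 1 was higher (8.33%, against 5.39% of all genes). LOC113653781, described as srsf6-like, measured 76.8, 71.3 and 78.4 FPKM in hypoxia and 58.8, 54.4 and 56.4 FPKM in normoxia, a log2 change of 0.58 ± 0.12 (edgeR adjusted p = 0.0382). Genes described as the srsf1 paralogues lay on opposite sides of 0, and neither passed. LOC113636756, srsf1A, had 100, 96.1 and 114 FPKM in hypoxia against 88.8, 64.2 and 82.7 FPKM in normoxia (log2 change 0.55, edgeR adjusted p = 0.0743). LOC113646933, srsf1B, had 55.8, 57.9 and 84.2 FPKM in hypoxia against 77.2, 115 and 111 FPKM in normoxia (log2 change -0.47, edgeR adjusted p = 0.151).

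In srsf2, srsf3, srsf5 and tra2b the group means differed by less than the SD of at least 1 group. srsf2 averaged 72.4 ± 11.2 FPKM in hypoxia and 76.5 ± 9.42 FPKM in normoxia, and srsf3 averaged 132 ± 20.7 FPKM in hypoxia and 167 ± 47.4 FPKM in normoxia (SD, n = 3 each). srsf5, the most abundant, averaged 185 ± 20.9 FPKM in hypoxia and 182 ± 15.1 FPKM in normoxia. tra2b, of a family that binds exonic enhancers, averaged 95.2 ± 3.62 FPKM in hypoxia and 106 ± 14.3 FPKM in normoxia. Its description is transformer-2 protein homolog alpha-like, which differs from its symbol.

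Among the 15 hnRNP genes and relatives, which coat nascent RNA, 1 was higher and 1 lower (6.67% each, near the 5.39% and 4.15% of all genes). pcbp2, a poly(C)-binding protein, measured 135, 126 and 138 FPKM in hypoxia and 101, 90.5 and 108 FPKM in normoxia, a log2 change of 0.58 ± 0.14 (edgeR adjusted p = 0.0478). hnrnpa3 measured 19.9, 18.4 and 26.6 FPKM in hypoxia and 33.1, 40.2 and 36.0 FPKM in normoxia, a log2 change of -0.60 ± 0.14 (edgeR adjusted p = 0.0459). Their groups stood apart too. Of 3 genes described as hnRNP A1-like, LOC113641884 averaged 224 ± 20.8 FPKM in hypoxia and 173 ± 13.2 FPKM in normoxia and did not pass (edgeR adjusted p = 0.0654). LOC113641868 averaged 115 ± 13.9 FPKM in hypoxia and 123 ± 5.86 FPKM in normoxia, and LOC113662004 averaged 20.04 ± 2.36 FPKM in hypoxia and 23.0 ± 1.24 FPKM in normoxia (SD, n = 3 each). Reads shared by such copies could have been split between them.

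hnrnpk averaged 67.4 ± 4.38 FPKM in hypoxia and 66.0 ± 2.42 FPKM in normoxia, and LOC113641577, described as hnRNP K-like, averaged 37.0 ± 2.12 FPKM in hypoxia and 34.0 ± 3.05 FPKM in normoxia. hnrnpa0, the most abundant of the role, averaged 232 ± 29.2 FPKM in hypoxia and 200 ± 5.44 FPKM in normoxia (SD, n = 3 each). LOC113656530, described as a poly(C)-binding protein, was barely detected, with 0.0721, 0.689 and 0.514 FPKM in hypoxia against 1.98, 1.12 and 1.33 FPKM in normoxia, and did not pass (edgeR adjusted p = 0.162).

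The minor spliceosome removes a small class of introns with other short RNAs. None of its 4 genes under the KEGG entry was called by edgeR or DESeq2, and 0 had an unadjusted p under 0.05. zrsr2, which finds the end of such introns, had 3.20, 3.89 and 3.60 FPKM in hypoxia against 3.96, 6.39 and 5.76 FPKM in normoxia (edgeR adjusted p = 0.246). txnl4b averaged 5.06 ± 1.31 FPKM in hypoxia and 4.48 ± 0.890 FPKM in normoxia, and zcrb1 averaged 11.3 ± 1.22 FPKM in hypoxia and 12.1 ± 0.833 FPKM in normoxia (SD, n = 3 each).

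**Figure D4:**
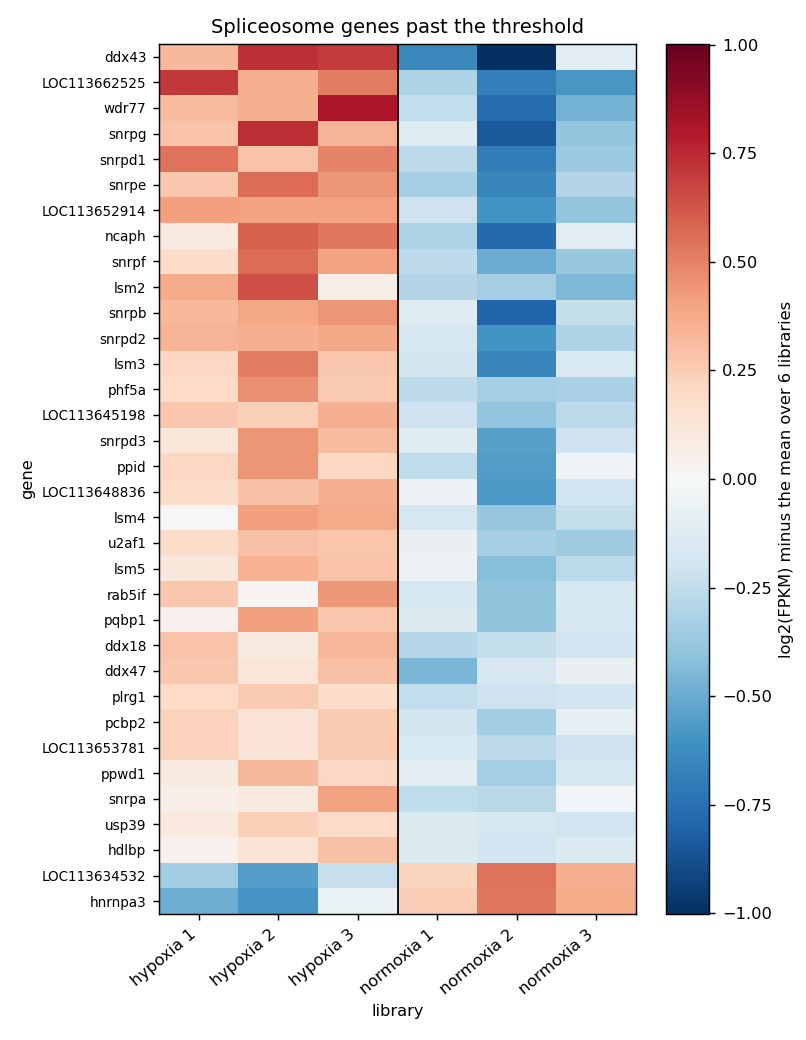
The 34 spliceosome genes past the threshold (32 higher, 2 lower in hypoxia), as log2(FPKM) minus the gene's mean over 6 libraries, with hypoxia replicates left of the line and normoxia replicates right of it. Normoxia replicate 2 holds the lowest value of 26 of the 32 higher genes, and the 2 lower genes at the bottom show the opposite colours.

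Among the 67 genes that carry the entry by likeness, the clearest was wdr77. Its protein, also called methylosome protein 50, is the partner of the methyltransferase PRMT5, which modifies Sm proteins before the ring is loaded. wdr77 measured 36.8, 37.7 and 52.0 FPKM in hypoxia and 24.8, 17.3 and 21.3 FPKM in normoxia, a log2 change of 1.14 ± 0.18 (edgeR adjusted p = 0.0222). prmt5 itself, outside the KEGG entry, measured 19.2, 16.7 and 20.045 FPKM in hypoxia and 12.3, 9.07 and 11.5 FPKM in normoxia, a log2 change of 0.93 ± 0.17 (edgeR adjusted p = 0.0278). clns1a, the third subunit of that complex, had 49.3, 45.1 and 44.97 FPKM in hypoxia against 35.5, 27.4 and 35.6 FPKM in normoxia and lay just outside the threshold (edgeR adjusted p = 0.0507). In all 3 genes the groups stood apart.

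The 21 helicases by likeness, many of them for ribosome assembly, included 3 that were higher (14.3%, against 5.39% of all genes). ddx18 measured 29.98, 26.2 and 31.1 FPKM in hypoxia and 20.3, 20.9 and 21.6 FPKM in normoxia (log2 change 0.64, edgeR adjusted p = 0.0304). ddx43 was low, with 2.71, 3.60 and 3.52 FPKM in hypoxia and 1.39, 1.08 and 2.01 FPKM in normoxia (log2 change 1.28, edgeR adjusted p = 0.0384), the largest rise of the 210. ddx47, named here after its values were seen, had a log2 change of 0.62. ddx21, a nucleolar helicase and the most abundant of them, averaged 432 ± 42.8 FPKM in hypoxia and 522 ± 46.0 FPKM in normoxia and did not pass (edgeR adjusted p = 0.729).

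Of 15 RNA-binding proteins by likeness 2 were higher (13.3%, against 5.39% of all genes). LOC113645198, described as cold-inducible RNA-binding protein B-like and the most abundant of the 210, measured 741, 724 and 784 FPKM in hypoxia and 531, 467 and 510 FPKM in normoxia (log2 change 0.74, edgeR adjusted p = 0.0352). hdlbp, which encodes vigilin, averaged 57.8 ± 5.05 FPKM in hypoxia and 46.3 ± 0.962 FPKM in normoxia (SD, n = 3 each) and passed at the limit (log2 change 0.48). LOC113657833, of the same description as LOC113645198, had 579, 648 and 628 FPKM in hypoxia against 488, 435 and 451 FPKM in normoxia (edgeR adjusted p = 0.0513). Reads shared by these 2 copies could have been split between them.

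Of the other 31 proteins by likeness 4 were higher (12.9%, against 5.39% of all genes). Beside wdr77 these were ncaph, a condensin subunit, with 18.1, 25.6 and 24.5 FPKM in hypoxia against 13.7, 9.90 and 15.7 FPKM in normoxia, rab5if with a log2 change of 0.64, and ppid, named after its values were seen, with 0.72. ppib, a secretory-pathway cyclophilin and the most abundant of them, had 461, 615 and 500 FPKM in hypoxia against 418, 277 and 382 FPKM in normoxia and did not pass (edgeR adjusted p = 0.0780). The largest fitted falls, down to a log2 change of -4.26, belonged to genes described as SAMHD1-like and were not called. LOC113639097 had counts of 0 in 2 hypoxia libraries and 2.52 FPKM in the third, against 50.2 and 5.42 FPKM in 2 normoxia libraries and a count of 0 in the other. LOC113636563 had 0.0945, 0.519 and 0.542 FPKM in hypoxia against 1.85, 1.08 and 1.66 FPKM in normoxia (edgeR adjusted p = 0.0931). It reached 1 FPKM in normoxia libraries alone, so the level filter itself kept its groups apart. LOC113636521, of the same description, ran from 0.248 to 8.08 FPKM in hypoxia and from 5.53 to 35.2 FPKM in normoxia.

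The ratio of 2 genes in the same library carries no scaling between libraries. The 6 ratios given here were picked after their genes' values were seen, so they are a description and carry no test. srsf1A over srsf1B was 1.80, 1.66 and 1.36 in hypoxia and 1.15, 0.557 and 0.743 in normoxia. LOC113652914 (DDX39A) over LOC113634769 (DDX39B) was 12.7, 14.6 and 13.3 in hypoxia and 8.08, 2.84 and 3.60 in normoxia. LOC113648836, the other DDX39A gene, over LOC113634769 was 4.99, 6.23 and 5.94 in hypoxia and 4.14, 1.33 and 1.902 in normoxia. In these 3 pairs the hypoxia libraries had the higher ratios, and normoxia replicate 1 was the normoxia library nearest to them.

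In the SF3B complex, phf5a over sf3b1 was 0.344, 0.457 and 0.324 in hypoxia and 0.197, 0.114 and 0.137 in normoxia. In U1, snrpa over snrnp70 was 0.516, 0.478 and 0.396 in hypoxia and 0.293, 0.224 and 0.253 in normoxia. pcbp2 over hnrnpa3 was 6.82, 6.84 and 5.22 in hypoxia and 3.06, 2.25 and 3.002 in normoxia. The libraries of the groups did not overlap in any of the 6 ratios. phf5a is far shorter than sf3b1, and the trend with length above touches that ratio. By estimated length the first gene was also the shorter for snrpa over snrnp70 (1421 against 2607 bases). The same held for both DDX39A genes over LOC113634769 (1740 and 1681 against 2406 bases) and srsf1A over srsf1B (1901 against 2283 bases). The trend can touch these ratios too.

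**Figure D5:**
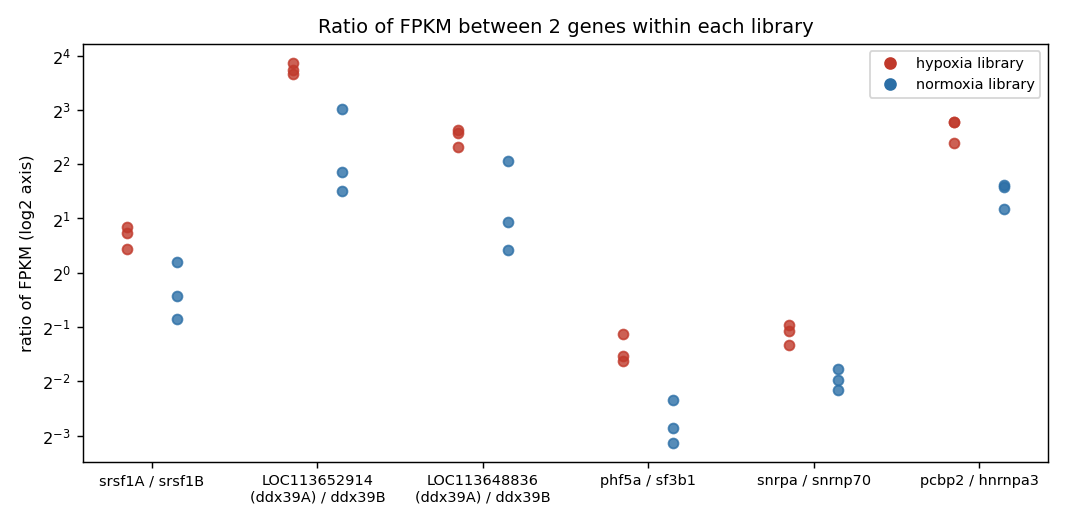
Ratio of FPKM between 2 spliceosome genes within each library (log2 axis), with 3 hypoxia libraries left of 3 normoxia libraries for each pair. The hypoxia ratios lie above the normoxia ratios in all 6 pairs, from a log2 difference of 0.85 for snrpa over snrnp70 to 1.63 for LOC113652914 over ddx39B.

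Genes of the same process outside the KEGG entry mostly did not pass. In snRNP assembly, 1 of 14 genes tested, prmt5, was higher and 0 were lower, with a median log2 change of 0.30. Over all genes, 5.39% were higher and 4.15% lower. No gene passed among 6 kinases of SR proteins, 7 further minor spliceosome genes, 9 tissue splicing regulators, 18 cleavage and polyadenylation factors and 10 genes of nonsense-mediated decay, with medians of -0.11, -0.07, 0.07, 0.16 and -0.09. At an unadjusted p under 0.05, where 30.3% of all genes lay, these 5 lists held 1, 1, 3, 5 and 1 genes, and DESeq2 called 0, 1, 1, 4 and 0 of them. The snRNP assembly list held 4 genes at that p, and DESeq2 called 4 of its genes higher and 0 lower. Over all genes, DESeq2 called 11.7% higher and 10.1% lower. Nearest to the threshold was clns1a of snRNP assembly, given above (edgeR adjusted p = 0.0507). Next came nudt21, a cleavage factor, with 31.5, 35.0 and 28.8 FPKM in hypoxia against 22.2, 21.4 and 26.3 FPKM in normoxia (edgeR adjusted p = 0.0544). It was followed by cpsf3, the endonuclease that cuts the mRNA end (log2 change 0.47, edgeR adjusted p = 0.0549). Among the rest, rnpc3 of the minor spliceosome had 20.7, 24.2 and 28.8 FPKM in hypoxia against 28.7, 51.3 and 44.4 FPKM in normoxia (edgeR adjusted p = 0.106). Its relative zmat5 had a log2 change of -0.48.

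The kinases clk2 and srpk3, which phosphorylate SR proteins, had 24.8, 27.4 and 29.7 FPKM (clk2) and 4.67, 3.87 and 4.89 FPKM (srpk3) in hypoxia, against 30.6, 40.2 and 39.6 FPKM (clk2) and 5.49, 9.13 and 6.98 FPKM (srpk3) in normoxia. On FPKM the hypoxia pools lay below the normoxia pools for both, and neither passed (edgeR adjusted p = 0.211 and 0.155). The splicing repressor gene ptbp1 had a log2 change of 0.41 and tardbp, an RNA-binding regulator, of 0.38. For smg6 and smg8, of nonsense-mediated decay, the log2 changes were -0.44 and -0.26, and none of these 4 genes passed.

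Of the cell type markers, 2 of proliferating cells and 2 of leukocytes passed. Over all genes, edgeR called 5.39% higher and 4.15% lower, and DESeq2 called 11.7% higher and 10.1% lower. An unadjusted p under 0.05 was found for 30.3% of all genes with edgeR. Of 7 tested genes of proliferating cells, the kinase gene cdk1 (72.1, 115 and 98.9 FPKM in hypoxia, against 51.1, 32.3 and 50.3 FPKM in normoxia) and the topoisomerase gene top2a (log2 change 0.91) were higher, while the replication genes mcm2 and mcm5 had log2 changes of -0.16 and -0.18 and did not pass. The log2 changes of ccnb1, rrm2 and pcna were 0.96, 0.75 and 0.52, and they did not pass (edgeR adjusted p = 0.0590, 0.0510 and 0.174). DESeq2 called 4 of the 7 genes higher and 0 lower. The 7 genes summed to 371 to 531 FPKM in hypoxia and 238 to 397 FPKM in normoxia, with the lowest sum in normoxia replicate 2, which also had the lowest Sm and LSm sum. Of 6 leukocyte markers, cd79a and spi1 were lower, and the sum was 391.7 to 429 FPKM in hypoxia and 498 to 575 FPKM in normoxia. A log2 change above 0 was found in 0 of these 6 genes, and their median was -0.53. An unadjusted p under 0.05 was found for 4 of them, and DESeq2 called 3 lower and 0 higher. None of 4 gill epithelium, 7 ionocyte, 4 endothelium and 9 haemoglobin genes passed with edgeR; 1, 1, 0 and 0 of them had an unadjusted p under 0.05, and DESeq2 called 1 epithelium gene. The epithelial markers summed to 919 to 1905 FPKM in hypoxia and 1325 to 2459 FPKM in normoxia. Most of that sum was krt18, with 790 to 1690 FPKM in hypoxia and 1138 to 2215 FPKM in normoxia. The haemoglobin genes summed to 7298 to 9964 FPKM in hypoxia and 6782 to 14731 FPKM in normoxia. The part of these cells in the spliceosome result was not tested.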

How the data were processed

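Per the labels' protocols, oligo-dT-purified RNA was sequenced in pairs on a NovaSeq. The submitters' processing notes name cutadapt 1.9 and HISAT; counter, strand setting, annotation and genome build: not given in the sources used here. Deposited were counts, and FPKM that the authors computed, for each gene and library, with a count of 0 listed at 0.0001 FPKM. What 1 count stands for, single reads or pairs, is not stated there.

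Genes with at least 1 FPKM in at least 3 of 6 libraries (15312) were fitted together with edgeR 4.0.16 (glmQLFit, glmQLFTest, two-sided; TMM factors 0.869 to 1.08) in R 4.3.3, adjusted by Benjamini-Hochberg and called at an adjusted p under 0.05. The SE of a log2 change is its size divided by the square root of F. The common biological coefficient of variation was 0.329, and libraries within a group differed beyond counting noise (chi-square per gene 102 to 168), so the spread between pools limits the precision. The fits were also run on simulated counts with known changes. These had as many rises as falls and no trend with length, so they cannot judge the scaling or the length correction. Transcript length was estimated from count and FPKM where the count was at least 10, and the length correction is a loess offset (span 0.5). Alternatives used other scalings, limma 3.58.1 on log2(FPKM + 1) or log2(FPKM + 0.1), DESeq2 1.42.0, other filters, a replicate block, and fits leaving out 1 library.

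Genes and lists were chosen with earlier results of these data known. Role classes follow symbols and descriptions, so a description is a likeness. Named were a fixed core set, the 30 called genes with the smallest p, in each role the 2 genes with the smallest p and the most abundant, and the 3 largest rises and falls without overlap. Genes named outside this rule (lsm6, lsm7, lsm8, sf3a2, rbm25, LOC113639097, LOC113636521, LOC113657833, ddx47 and ppid) were chosen after their values were seen. Of the 210 genes, 31 overlap another gene, 29 of them on the opposite strand. Coordinates are those of the deposited table.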

Additional observations from a re-analysis of the deposited data

How the results depend on the processing

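Of the 32 genes called higher, 31 were also called with DESeq2's size factors in edgeR, 30 with upper-quartile factors and 32 by DESeq2 itself, and all 32 kept their sign in each of the 16 alternatives that tested them, as did the 2 lower genes and 129 of the 176 others. The number called higher was 9 with library totals alone, 17 with the length correction, 55 by DESeq2, 13 and 11 by limma on log2(FPKM + 1) and log2(FPKM + 0.1), 12 without the FPKM filter and 0 to 19 with 1 library left out. The number lower was 0 with the length correction, 8 by DESeq2 and 4 by limma on log2(FPKM + 1). It was 0 without the filter, 4 at a filter of 5 FPKM and 0 to 2 with 1 library left out. The share of all genes called moved with the setting too. It was 4.74% higher and 2.26% lower with the length correction, and 11.7% and 10.1% by DESeq2. For limma it was 3.13% and 5.79% on log2(FPKM + 1), and 2.85% and 4.89% on log2(FPKM + 0.1). Without the filter it was 2.32% and 1.38%, and at 5 FPKM 8.29% and 7.97%. Of the 14 Sm and LSm genes, the number called higher was 4 with totals alone, 3 with the length correction, 7 and 6 by limma, 5 without the filter and 0 to 10 with 1 library left out. The median of 0.28 was 0.11 with totals alone and 0.11 and 0.12 by limma; totals alone also move the median of all genes, to -0.20 against -0.04 with TMM, and give 366 genes higher and 798 lower, against 825 and 636. The causes of these moves were not tested beyond that shift.

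The labels do not say that libraries of the same number pair. The correlations of their deviations from the group means were -0.0838, 0.0483 and -0.0964. Those of differently numbered libraries ran from -0.117 to 0.18. With 3 libraries per group, these values cannot decide whether the pools pair. With the replicate block 2 of the 210 genes were higher and 0 lower, against 0.797% and 0.784% of all genes, and 1 of the 14 Sm and LSm genes was called.

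Among the genes named by the rule above, the log2 changes of 8 uncalled genes near 0 changed sign. These are a part of the whole, since 129 of all 176 uncalled genes kept their sign. With totals alone, limma on log2(FPKM + 1) and limma on log2(FPKM + 0.1) they were -0.0875, -0.0835 and -0.0846 for srsf2, -0.158, -0.141 and -0.142 for tra2b, -0.0776, -0.0764 and -0.0809 for snrnp200, -0.0151, -0.0151 and -0.0202 for LOC113646314, -0.0964, -0.0949 and -0.0956 for LOC113641868, and -0.102, -0.0918 and -0.0991 for zcrb1. At a filter of 5 FPKM they were -0.0605 for tra2b, -0.00811 for LOC113641868 and -0.0095 for zcrb1, and with the length correction 0.0987 for LOC113662004 and -0.0409 for zcrb1. Without the filter LOC113662004 was at 0.00959. With 1 library left out the ranges were -0.292 to 0.0541 for srsf3, -0.0995 to 0.194 for srsf2, -0.0536 to 0.0676 for tra2b, -0.0961 to 0.0346 for LOC113662004 and -0.00324 to 0.106 for zcrb1.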
